A study of Mus musculus with 16 samples.

Results

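The actin, myosin, tubulin and keratin genes of a mouse cDNA array were followed through treatment with azacytidine, a cytosine analogue that inhibits DNA methylation. Members were taken by gene symbol. They are the probes with a single symbol for a numbered actin, alpha-actinin, actin-related protein, tropomyosin, myosin, tubulin, keratin, calponin, troponin or Arp2/3 subunit, together with Vim, Des, Tagln, Cfl1 and Pfn1. The rule found 134 of the 20355 probes, which belong to 101 of the 9930 genes that a probe names by a single symbol. Enough arrays had a value for 103 of these probes, which give 79 genes, and the remaining 22 genes have no fitted value.

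The cells were NIH3T3, an established mouse fibroblast line. Each of the 16 arrays compared RNA of treated cells, in one dye, with RNA of the same line left untreated, in the other dye. The first group was Erbb2-transfected NIH3T3 cells at 10 µM azacytidine, on 8 arrays, and the second was the same Erbb2-transfected cells at 5 µM, on 4 arrays. The third was NIH3T3 cells without the Erbb2 transfection at 10 µM, on 4 arrays. Erbb2 is a receptor tyrosine kinase and an oncogene, and the transfected cells are labelled as overexpressing it. The labels give no time of treatment, no number of clones and no statement that the arrays came from separate cultures, so that p-values measure the spread between arrays, which may be technical. The protocol text speaks of organs and of a reference pool of animals, whereas the source names give cell lines for both channels. Both Erbb2 groups were set against untreated Erbb2 cells.

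The deposited values are log ratios, read here as log2 of Cy5 over Cy3, and the sign was turned where Cy3 labelled the treated RNA. A positive value then means more RNA in treated cells. This direction is likely but not settled by the labels. If the values are Cy3 over Cy5, the sign of every value turns in every group. If they were deposited already as treated over untreated, the sign turns only on arrays with treated RNA in Cy3. On the untransfected arrays the labels name one dye for both channels, and the label of channel 1 was used. If that label is wrong, the sign of every value of the untransfected group turns. An array gave between 16153 and 18507 ratios. Ratios carry no level, so neither the amount of any member's RNA nor the fibroblast identity of the cells could be checked from its markers. Fewer cells of a kind and less RNA per cell cannot be told apart in such bulk RNA.

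Actin filaments, microtubules and intermediate filaments are the filament systems of an animal cell. Actin filaments are moved over by myosins and held in shape by tropomyosins, calponins and the Arp2/3 complex, and microtubules are polymers of alpha- and beta-tubulin. Intermediate filaments are built of vimentin in fibroblasts and other mesenchymal cells and of paired type I and type II keratins in epithelia, and desmin, troponins and sarcomeric myosins belong to muscle.

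Azacytidine acts on methylation at CpG, a C followed by a G, so the start regions of the genes with the clearest ratios are shown first. Of the 79 genes, 65 have an entry in the RefSeq promoter table of build GRCm38.p6, in 75 windows. A window runs from 250 bases before to 50 bases after a gene's start, and the median number of CpG is 8 in member windows and 7 in all 32851 windows. The 250 bases before the start are given 5′ to 3′ on the gene's strand, with each CpG in capitals. They are those of Krt8 (chr15:102004343-102004592, minus strand), Krt18 (chr15:102027966-102028215, plus strand), Vim (chr2:13574061-13574310, plus strand) and Mylpf (chr7:127211358-127211607, plus strand).
Krt8: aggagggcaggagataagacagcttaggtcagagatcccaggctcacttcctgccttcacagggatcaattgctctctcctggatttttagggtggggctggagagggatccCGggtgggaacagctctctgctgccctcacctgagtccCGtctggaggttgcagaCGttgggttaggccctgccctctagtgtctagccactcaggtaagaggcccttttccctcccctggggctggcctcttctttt
Krt18: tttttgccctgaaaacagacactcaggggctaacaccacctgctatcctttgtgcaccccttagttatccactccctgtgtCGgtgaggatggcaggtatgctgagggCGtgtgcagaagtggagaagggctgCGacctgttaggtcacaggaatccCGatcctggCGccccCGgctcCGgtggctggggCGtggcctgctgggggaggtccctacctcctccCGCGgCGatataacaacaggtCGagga
Vim: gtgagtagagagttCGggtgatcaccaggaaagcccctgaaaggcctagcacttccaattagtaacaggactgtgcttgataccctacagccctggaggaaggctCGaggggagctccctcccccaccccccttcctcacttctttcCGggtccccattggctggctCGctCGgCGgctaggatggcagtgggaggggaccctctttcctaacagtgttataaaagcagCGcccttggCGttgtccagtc
Mylpf: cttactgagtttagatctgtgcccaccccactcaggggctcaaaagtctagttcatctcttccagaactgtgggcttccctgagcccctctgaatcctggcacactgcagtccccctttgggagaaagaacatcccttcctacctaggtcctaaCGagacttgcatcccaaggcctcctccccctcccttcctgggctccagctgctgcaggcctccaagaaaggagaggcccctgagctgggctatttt
Of the genes shown, Krt8, Vim and Mylpf had a called change and Krt18 did not. Krt4, the remaining gene with a called change, is on chromosome 15 and is not among the 65 genes with an entry.

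The 4 windows span a wide range of CpG content. The whole window holds 6 CpG at Krt8, and 56.4% of all windows hold at least as many. It holds 17 at Krt18, a number reached by 31.4% of windows. It holds 11 at Vim, reached by 41.4%, and 2 at Mylpf, reached by 85.9%. Methylation itself was not measured on these arrays.

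All tests below are from 1 limma model over the 16 arrays, with a value for each group and a shared term for the dye, and are two-sided. A fitted value is a log2 ratio, treated over untreated, given with its standard error, and a gene passed where its p, adjusted by Benjamini-Hochberg across the 12420 features of the array, was under 0.05. At 10 µM in Erbb2 cells 0 of the 79 member genes passed by limma, against 1.26% of all features, 0.403% higher and 0.862% lower. There 3 members were higher and 9 lower at an unadjusted p under 0.05, a level met by 10.8% of features. At 5 µM in Erbb2 cells 0 of 79 passed by limma, against 0.209% of all features, 0.177% higher and 0.0322% lower, and 2 were higher and 5 lower at an unadjusted p under 0.05, met by 6.33% of features. In untransfected cells at 10 µM, 4 of the 79 passed, where 2.73% of all features passed, 0.596% higher and 2.13% lower. Krt8 was higher in treated cells, and Krt4, Mylpf and Vim were lower. These 4 calls were lost when each group was fitted on its own arrays, and likewise when no array was turned for its dye.

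The medians of the members lay close to those of all features. The median log2 ratio over the 79 genes was -0.00 in Erbb2 cells at 10 µM, with 39 genes above 0 and 40 below. It was -0.06 in Erbb2 cells at 5 µM and 0.06 in untransfected cells. The medians over all features were -0.00, -0.02 and 0.03 in the same order of groups. The 95% interval of the fitted value lay wholly between -1 and 1 for 57, 43 and 38 of the 79 genes in Erbb2 cells at 10 µM, Erbb2 cells at 5 µM and untransfected cells. Fitted values ran from -1.16 to 1.41, from -1.49 to 1.88 and from -1.33 to 2.10 in those groups. One sign on every measured array of the group was seen for 6, 18 and 22 of the 79 genes, against 3.35%, 18.5% and 25.5% of all features. The 22 genes without a fitted value were Actn3, Actr5, Actr8, Arpc1a, Arpc5, Cfl1, Krt1, Krt14, Krt17, Krt7, Krt84, Krt88, Krt9, Myh3, Myl2, Myo1g, Myo3b, Tnni1, Tpm3, Tuba8, Tubb2b and Tubb4a, whose best probe had between 3 and 14 values.

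The differences between groups themselves gave no called member. For 10 minus 5 µM in Erbb2 cells 0 of 79 passed by limma, against 0% of all features, with 1 higher and 1 lower at an unadjusted p under 0.05, a level met by 4.34% of features. For Erbb2 minus untransfected cells at 10 µM 0 of 79 passed by limma against 0.797% of all features, 0.620% higher and 0.177% lower, with 4 higher and 5 lower at an unadjusted p under 0.05, met by 9.72% of features. Egr1 and the integrin chain Itgb1 of the serum response factor list passed in that comparison, at -3.48 ± 0.39 and 0.88 ± 0.18, as did Fn1 at 1.68 ± 0.25 (limma adjusted p = 4.65e-04, 0.0313 and 0.00361). The values of Krt4, Krt8, Mylpf and Vim that passed in untransfected cells are therefore not shown to differ from those in Erbb2 cells.

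**Figure D1:**
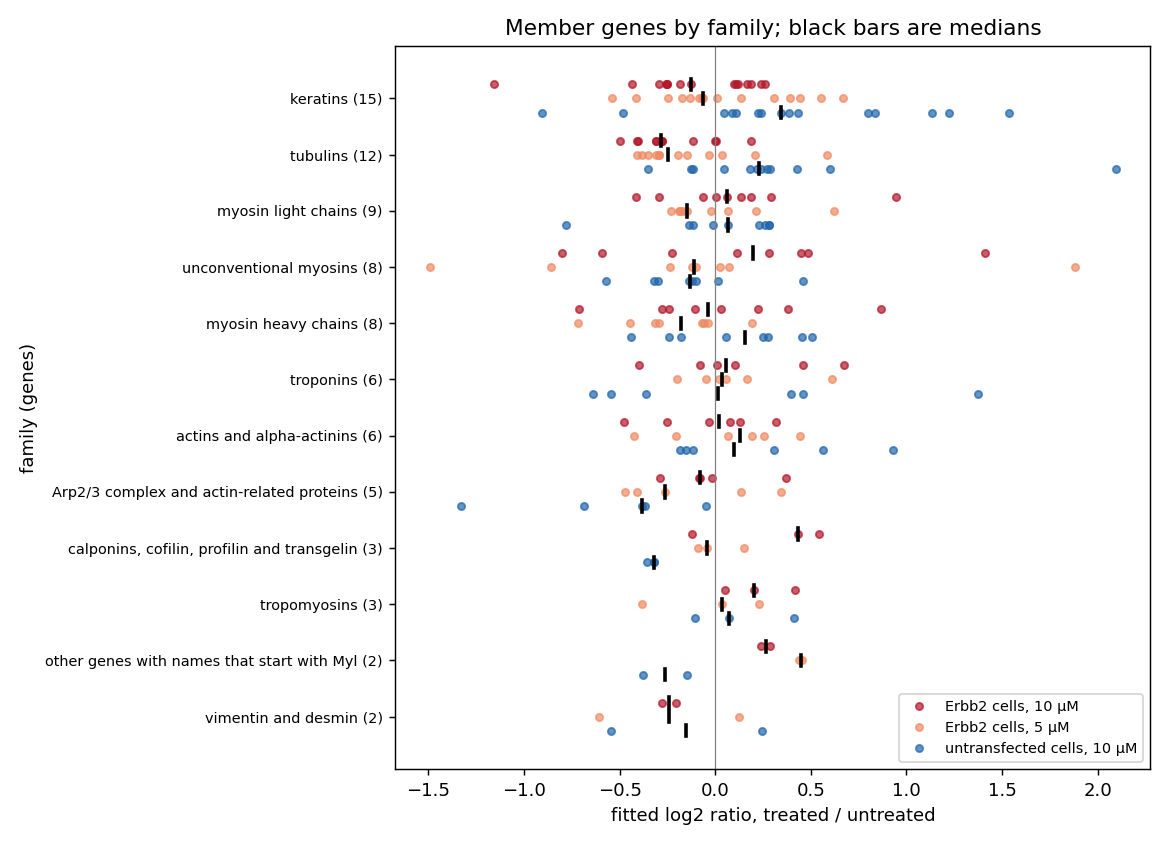
Fitted log2 ratio (treated / untreated) of the 79 member genes on the horizontal axis, by family, with the number of genes in parentheses. In each family the rows are Erbb2 cells at 10 µM (dark red), Erbb2 cells at 5 µM (orange) and untransfected cells at 10 µM (blue), and black bars are medians; the keratin medians are -0.13, -0.06 and 0.35 and the tubulin medians -0.28, -0.24 and 0.23.

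Vim, which encodes the intermediate filament protein of fibroblasts, was lower in treated cells on every array. Over the 8 Erbb2 arrays at 10 µM its log2 ratio had a lowest value of -0.55, a median of -0.24 and a highest value of -0.09. The 4 Erbb2 arrays at 5 µM gave -0.63, -0.52, -0.82 and -0.45. In untransfected cells they gave -0.56, -0.51, -0.60 and -0.52. All 16 values were below 0, with the untransfected arrays the most alike and the 3 groups overlapping. Vim was the only one of the 52 members with a value on all 16 arrays to keep one sign throughout, as did 1.65% of the 7415 features with 16 values. With the untransfected arrays turned the other way, 0 of these members kept one sign, against 0.270% of those features, and Vim was at 0.55 in untransfected cells.

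The fitted log2 ratio of Vim was -0.28 ± 0.10 in Erbb2 cells at 10 µM (limma adjusted p = 0.289) and -0.61 ± 0.14 in Erbb2 cells at 5 µM (limma adjusted p = 0.151), and neither passed. It was -0.55 ± 0.14 in untransfected cells, a ratio of 0.684, and passed there (limma adjusted p = 0.0493). The differences between groups did not pass. The 10 minus 5 µM difference was 0.33 ± 0.17 and the Erbb2 minus untransfected difference at 10 µM was 0.27 ± 0.17. Vim has 2 probes on the array, and each was below 0 on 16 of 16 arrays. The call in untransfected cells was lost in 14 of the 16 fits that leave out 1 array, with an adjusted p of up to 0.166 and a fitted value between -0.56 and -0.53.

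Some listed fibroblast markers also passed in untransfected cells, with signs that turn if the dye label there is wrong. Of 16 listed fibroblast markers 12 were measured. This list in Erbb2 cells at 10 µM had 1 gene higher, the matrix protein Sparc at 0.68 ± 0.11 (limma adjusted p = 0.00335), and 0 lower, with a median of 0.02. At 5 µM 0 passed by limma, with a median of 0.12. In untransfected cells 3 passed lower, as did 2.13% of all features, and 0 passed higher. There 8 of the 12 lay below 0 and 4 above, and the median was -0.28, within a range of -1.63 to 0.67. Fibronectin (Fn1) had a fitted log2 ratio of -1.63 ± 0.20, the collagen crosslinking enzyme Lox -1.06 ± 0.18 and the collagen chain Col1a2 -0.79 ± 0.19, with limma adjusted p of 3.96e-04, 0.00410 and 0.0403. The part of these genes in the Vim result was not tested. Desmin (Des), the muscle counterpart of vimentin, was at -0.20 ± 0.21, 0.13 ± 0.30 and 0.25 ± 0.30 in Erbb2 cells at 10 µM, Erbb2 cells at 5 µM and untransfected cells.

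Of the keratins, 15 of 22 genes had a fitted value, and both keratins that passed did so in untransfected cells. Krt8, which in simple epithelia pairs with keratin 18, was higher there. On the 8 Erbb2 arrays at 10 µM its log2 ratio had a lowest value of -0.96, a median of -0.09 and a highest value of 0.45. On the Erbb2 arrays at 5 µM it was 0.42, 1.94, 0.40 and -0.09. On the 4 untransfected arrays it was 1.69, 1.04, 1.10 and 0.71. All untransfected values thus lay above all Erbb2 values at the same dose, whereas the 5 µM arrays overlapped both groups. The fitted value was -0.19 ± 0.19 in Erbb2 cells at 10 µM (limma adjusted p = 0.775) and 0.67 ± 0.27 in Erbb2 cells at 5 µM (adjusted p = 0.658). It was 1.13 ± 0.27 in untransfected cells, a ratio of 2.19 (limma adjusted p = 0.0359). The Erbb2 minus untransfected difference at 10 µM was -1.32 ± 0.33 and missed the threshold (limma adjusted p = 0.101). The call in untransfected cells was lost in 7 of the 16 fits without 1 array, with an adjusted p of up to 0.181, and without the dye term (adjusted p = 0.0513).

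Krt18, the type I partner of keratin 8, had log2 ratios from -0.31 to 0.53 on the 8 Erbb2 arrays at 10 µM, with a median of 0.11. Its 4 values on Erbb2 arrays at 5 µM were 0.10, -0.45, 0.20 and -0.10, and those on untransfected arrays were 1.74, 0.38, 0.93 and 0.29. All untransfected values were above 0, but their range overlapped that of the Erbb2 arrays at 10 µM. The fitted values in Erbb2 cells were 0.12 ± 0.16 at 10 µM and -0.06 ± 0.22 at 5 µM, and that of 0.83 ± 0.22 in untransfected cells did not pass (limma adjusted p = 0.0661). Without the first untransfected array, at 1.74, it was 0.53 (adjusted p = 0.371). It passed in untransfected cells when only features with a value on every array were tested (adjusted p = 0.0246), with each array scaled to one spread (0.0395) and with array weights (0.0337).

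Krt4, a type II keratin of stratified mucosal epithelia, was lower in treated untransfected cells, where Krt8 was higher. On the 8 Erbb2 arrays at 10 µM its lowest log2 ratio was -0.48, the median -0.27 and the highest 0.02. The Erbb2 arrays at 5 µM gave -0.17, -0.21, -0.20 and -0.10. In untransfected cells the log2 ratios of Krt4 were -1.03, -0.96, -0.72 and -0.91. Krt4 was below 0 on 15 of 16 arrays, and the untransfected arrays did not overlap with the others. One sign on at least 15 of 16 arrays was seen for 3.22% of the features with 16 values. The fitted values were -0.25 ± 0.09 in Erbb2 cells at 10 µM and -0.17 ± 0.13 at 5 µM, against -0.90 ± 0.13 in untransfected cells, a ratio of 0.534 (limma adjusted p = 0.00123). The Erbb2 minus untransfected difference at 10 µM was 0.65 ± 0.16, the smallest adjusted p of any member in that comparison (limma adjusted p = 0.0900). The call in untransfected cells held in all 16 fits without 1 array, with an adjusted p between 0.00138 and 0.0116.

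Over the family, 7 of 15 keratins had a fitted value above 0 in Erbb2 cells at either dose, with a median of -0.13 at 10 µM and -0.06 at 5 µM. In untransfected cells 13 of 15 were above 0, with a median of 0.35 against 0.03 for all features. With those arrays turned the other way 2 of 15 were above 0, with a median of -0.35. The Erbb2 minus untransfected difference at 10 µM was below 0 for 12 of 15 keratins, with a median of -0.60 (5 of 15 and 0.41 if turned), and 0 of 15 passed by limma, with 1 higher and 2 lower at an unadjusted p under 0.05. Several high values rested on 1 array. Krt19, a keratin of simple epithelia without a tail domain, had 0.53, 3.79, 0.06 and 0.52 in untransfected cells, with a fitted value of 1.22 ± 0.49 (limma adjusted p = 0.322). Krt5, a keratin of basal epidermis, had -0.15, -1.10, 0.85 and 6.55, with a fitted value of 1.54 ± 0.84. Krt77 was at -0.29 ± 0.19 in Erbb2 cells at 10 µM and at -0.42 ± 0.24 in Erbb2 cells at 5 µM, where all 4 arrays were below 0, and at 0.11 ± 0.24 in untransfected cells. Of 12 listed epithelial markers outside the keratins 5 were measured and 0 passed in any group by limma, with 1 lower and 0 higher at an unadjusted p under 0.05 in Erbb2 cells at 10 µM and 0 in the other 2 groups. Their median was 0.00 at 10 µM and 0.13 at 5 µM in Erbb2 cells, and 0.13 in untransfected cells, where they ran from -0.72 to 0.55.

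**Figure D2:**
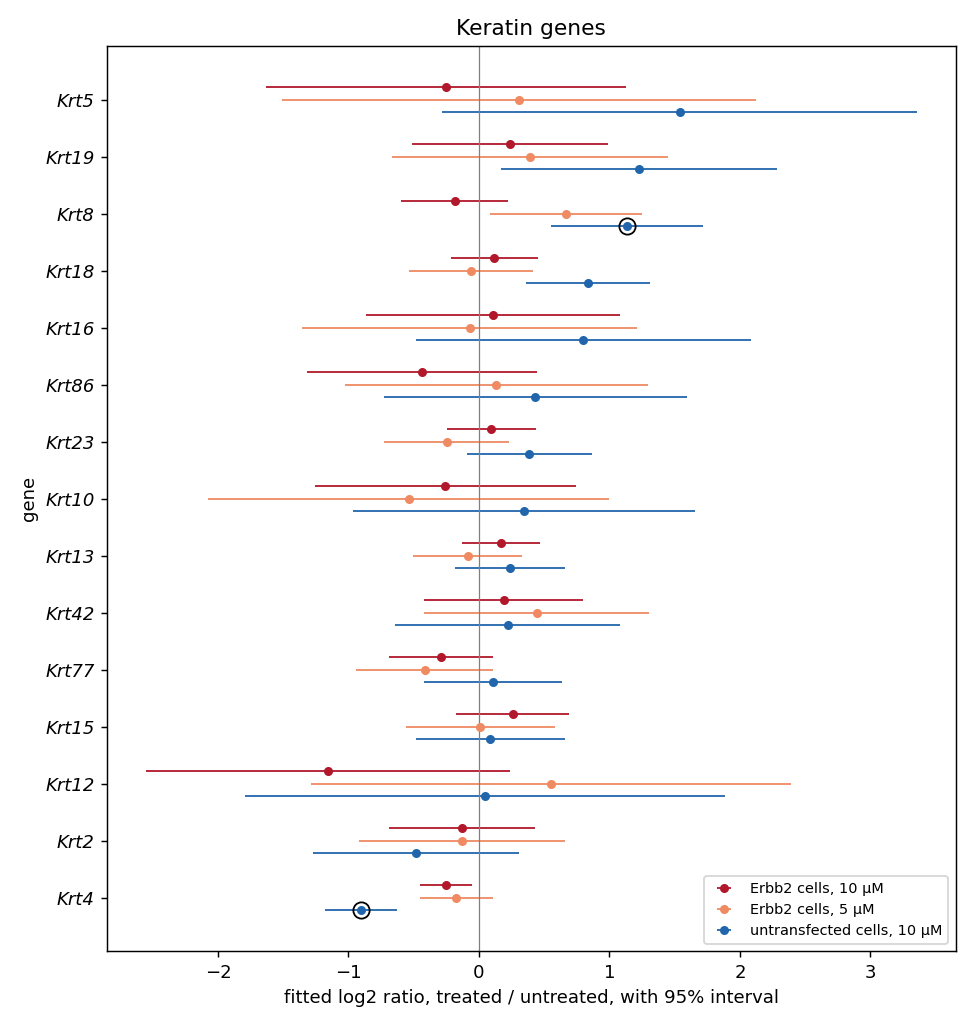
Fitted log2 ratio (treated / untreated) of the 15 keratin genes with its 95% interval in Erbb2 cells at 10 µM (dark red), Erbb2 cells at 5 µM (orange) and untransfected cells at 10 µM (blue), ordered by the value in untransfected cells. Black rings mark the values that passed, Krt8 at 1.13 and Krt4 at -0.90, both in untransfected cells; 13 of the 15 blue points lie above 0.

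Among the myosin light chains 9 of 10 genes had a fitted value and Mylpf passed, in untransfected cells. Mylpf encodes the regulatory light chain of fast skeletal muscle. On the 8 Erbb2 arrays at 10 µM its lowest log2 ratio was -0.59, the median -0.25 and the highest 0.03, and at 5 µM the values were -0.58, -0.31, -0.09 and 0.24. The untransfected arrays gave -0.78, -1.08, -0.72 and -0.55. The untransfected arrays were the lowest, with a narrow overlap with both Erbb2 groups. The fitted value was -0.30 ± 0.10 in Erbb2 cells at 10 µM and -0.19 ± 0.15 at 5 µM, against -0.78 ± 0.15 in untransfected cells, a ratio of 0.581 (limma adjusted p = 0.00784). The difference of 0.49 ± 0.18 between the lines at 10 µM did not pass (limma adjusted p = 0.341). The call was lost without the second untransfected array (adjusted p = 0.0593) and held in the other 15 fits without 1 array.

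Of 14 listed skeletal muscle markers 9 were measured and 0 passed by limma in the 3 groups, and in untransfected cells 0 had an unadjusted p under 0.05, with a median of 0.06. The essential light chain Myl6 of non-muscle and smooth muscle myosin was at 0.19 ± 0.18 at 10 µM and -0.02 ± 0.26 at 5 µM in Erbb2 cells, and at 0.28 ± 0.26 in untransfected cells. The value at 5 µM is a mean of opposed probes of Myl6, 1 from 0.088 to 0.625 and the other from -0.795 to -0.146. The atrial light chain Myl7 ran from -1.86 to 2.06 on the 8 Erbb2 arrays at 10 µM, and was above 0 on all 4 Erbb2 arrays at 5 µM, with a fitted value of 0.62 ± 0.46. Of the 6 troponins with a value, 0 passed by limma. Tnnc1, the troponin C of heart and slow muscle, had a fitted value of 1.37 ± 0.76 in untransfected cells, where 1 array was at 4.57 and the others between 0.02 and 0.47.

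**Figure D3:**
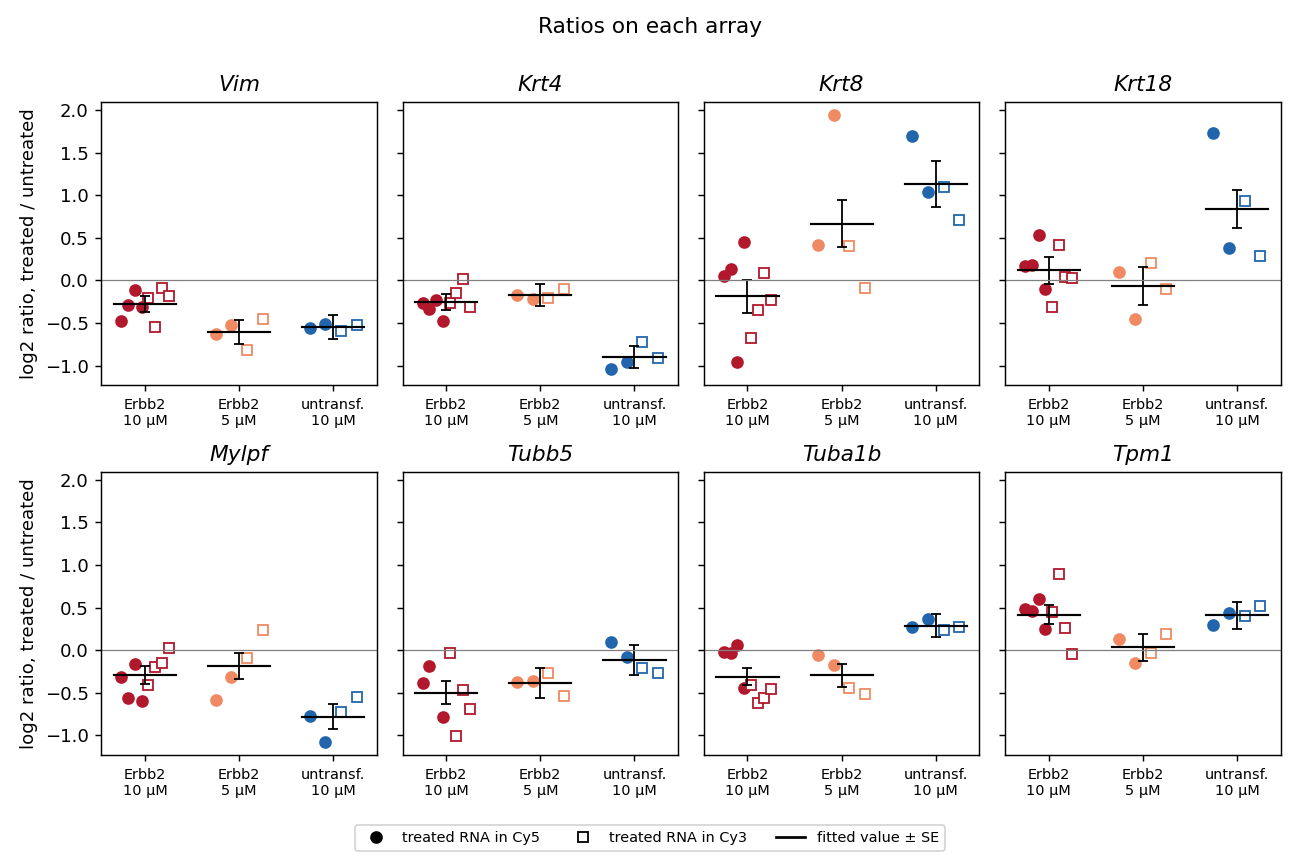
Log2 ratio (treated / untreated) on each array for 8 member genes, with filled circles for treated RNA in Cy5, open squares for treated RNA in Cy3, and a line with bars for the fitted value ± SE. Vim is below 0 on 16 of 16 arrays, the fitted value of Krt4 is lowest and that of Krt8 highest in untransfected cells, and Tuba1b is above 0 on every untransfected array and below 0 on all but 1 Erbb2 array.

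The tubulins, of which 12 of 15 genes had a fitted value, had medians on opposite sides of 0 in the 2 lines if the dye label of the untransfected arrays is right, and on the same side if it is not. In Erbb2 cells 10 of 12 were below 0 at 10 µM, with a median of -0.28, and 9 of 12 at 5 µM, with a median of -0.24. In untransfected cells 9 of 12 were above 0, with a median of 0.23, and with those arrays turned the other way 3 of 12 were, with a median of -0.23. The Erbb2 minus untransfected difference at 10 µM was below 0 for 11 of 12, with a median of -0.46 against -0.03 for all features. Turned, it was below 0 for 8 of 12, with a median of -0.05. By limma 0 of 12 passed in any group or in that difference, where 3 were lower and 0 higher at an unadjusted p under 0.05 and the smallest adjusted p was 0.159. Tubulin genes are close in sequence and a cDNA probe can bind RNA of several of them, so their values may not be independent.

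Tuba1b, a widely expressed alpha-tubulin, had the smallest p of the family for the difference between lines. On the 8 Erbb2 arrays at 10 µM its log2 ratio had a lowest value of -0.62, a median of -0.43 and a highest value of 0.06. At 5 µM it was -0.05, -0.18, -0.44 and -0.51, and in untransfected cells 0.28, 0.37, 0.24 and 0.27. The untransfected values lay above all Erbb2 values in the direction used, and would lie within their range if turned. The fitted values were -0.31 ± 0.10 at 10 µM and -0.30 ± 0.14 at 5 µM in Erbb2 cells, and 0.29 ± 0.14 in untransfected cells, and the difference between lines at 10 µM was -0.60 ± 0.17 (limma adjusted p = 0.159), or -0.02 with the untransfected arrays turned. The shared dye term of Tuba1b did not pass (limma adjusted p = 0.612). In Erbb2 cells at 10 µM the mean was -0.11 with treated RNA in Cy5 and -0.51 with treated RNA in Cy3. At 5 µM the means were -0.12 and -0.48. In untransfected cells these means were 0.32 and 0.26.

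Tubb5, a widely expressed beta-tubulin, came nearest to the threshold of all members in Erbb2 cells at 10 µM. Its 7 measured arrays there ran from -1.01 to -0.03 with a median of -0.46, all below 0. The arrays at 5 µM gave -0.37, -0.36, -0.27 and -0.53, also all below 0, and those of untransfected cells gave 0.10, -0.08, -0.21 and -0.27. The fitted values were -0.50 ± 0.13 in Erbb2 cells at 10 µM (limma adjusted p = 0.107), -0.38 ± 0.17 at 5 µM and -0.12 ± 0.17 in untransfected cells. Tuba1a had fitted values of -0.28 ± 0.12, -0.15 ± 0.17 and 0.24 ± 0.17 in the same order of groups, Tuba1c of -0.28 ± 0.14, -0.35 ± 0.20 and 0.22 ± 0.20, and Tuba4a of -0.40 ± 0.22, -0.41 ± 0.27 and 0.27 ± 0.27. These alpha-tubulins shared the signs of Tuba1b. The beta-tubulins Tubb2a and Tubb4b were at -0.29 ± 0.14 and -0.31 ± 0.17 in Erbb2 cells at 10 µM, at -0.20 ± 0.20 and -0.31 ± 0.25 in Erbb2 cells at 5 µM, and at 0.05 ± 0.20 and -0.12 ± 0.25 in untransfected cells.

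Tuba3b stood apart from the other alpha-tubulins by its size. In Erbb2 cells it was at -0.12 ± 0.36 at 10 µM, where 7 arrays ran from -1.31 to 1.58, and at 0.59 ± 0.55 at 5 µM, where 3 arrays lay between 0.49 and 0.73. Its 3 measured untransfected arrays gave 3.35, 0.84 and 2.02, with a fitted value of 2.10 ± 0.55 that missed the threshold (limma adjusted p = 0.0775). It was 1.26 without the first untransfected array, and passed with array weights (adjusted p = 0.0459) and without Erbb2 array 7 at 10 µM (0.0305). The gamma-tubulins, which nucleate microtubules at the centrosome, had no common direction. Tubg1 was at 0.19 ± 0.25, -0.29 ± 0.41 and 0.18 ± 0.35 in Erbb2 cells at 10 µM, Erbb2 cells at 5 µM and untransfected cells. Tubg2 was below 0 on all 8 Erbb2 arrays at 10 µM, with a fitted value of -0.41 ± 0.21, and was at 0.03 ± 0.29 at 5 µM and -0.35 ± 0.29 in untransfected cells. Of 33 listed microtubule-associated proteins and motors 22 were measured and 0 passed by limma in the 3 groups, with 4, 2 and 2 at an unadjusted p under 0.05 and medians of -0.08, -0.00 and 0.02.

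**Figure D4:**
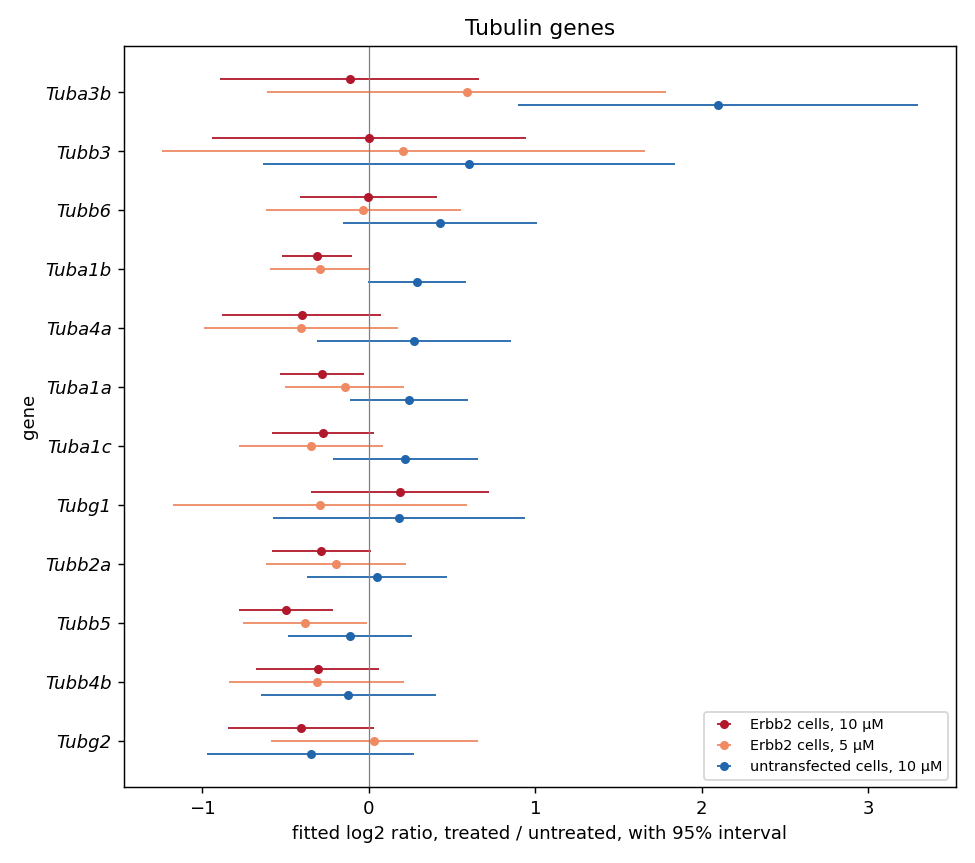
Fitted log2 ratio (treated / untreated) of the 12 tubulin genes with its 95% interval in Erbb2 cells at 10 µM (dark red), Erbb2 cells at 5 µM (orange) and untransfected cells at 10 µM (blue), ordered by the value in untransfected cells. The blue points lie to the right of the dark red points in 11 of 12 genes and no value passed.

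Of the actins and alpha-actinins 6 of 7 genes had a fitted value and 0 passed by limma. Actg1, the cytoplasmic gamma-actin, had a fitted value of 0.08 ± 0.17 in Erbb2 cells at 10 µM and 0.26 ± 0.24 at 5 µM. It was above 0 on all 4 untransfected arrays, at 0.82, 0.14, 0.43 and 0.85, with a fitted value of 0.56 ± 0.24 (limma adjusted p = 0.353). Its 4 probes did not share one value in untransfected cells. They were at 1.88, 0.72, 0.08 and 0.02, and the highest of them passed when each probe was tested on its own (limma adjusted p = 0.0238). Actc1, the cardiac alpha-actin, was at -0.25 ± 0.12 in Erbb2 cells at 10 µM and at -0.43 ± 0.16 in Erbb2 cells at 5 µM (adjusted p = 0.605), where all 4 arrays lay between -0.47 and -0.32, and was at -0.18 ± 0.16 in untransfected cells. Acta2, the smooth muscle alpha-actin, was at -0.48 ± 0.30, 0.19 ± 0.43 and -0.12 ± 0.43 in Erbb2 cells at 10 µM, Erbb2 cells at 5 µM and untransfected cells. Its 2 probes were opposed at 5 µM, at -0.56 ± 0.14 and 0.94 ± 0.84. When only features with a value on every array were tested, which left the first probe, Acta2 passed there, at -0.56 (limma adjusted p = 0.0365). In the same order of groups, the cytoplasmic alpha-actinin Actn4 was at 0.13 ± 0.23, 0.07 ± 0.33 and 0.31 ± 0.33. The cytoplasmic beta-actin Actb, whose symbol has no number and which is thus not a member, was below 0 in every group, at -0.38 ± 0.12, -0.48 ± 0.16 and -0.38 ± 0.16, and did not pass (limma adjusted p = 0.199, 0.487 and 0.367).

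Tpm1, a tropomyosin that lies along actin filaments, was the tropomyosin with the narrowest values after its probes were averaged. Its probes were opposed at 5 µM, at fitted values of 0.30 and -0.23. On Erbb2 arrays at 10 µM they were at -0.85 and 2.05 on array 3 and at 0.82 and -0.90 on array 8. In untransfected cells both probes were above 0 on every array. The values that follow are means of these probes. It was above 0 on 7 of 8 Erbb2 arrays at 10 µM, with a lowest value of -0.04, a median of 0.45 and a highest value of 0.89. The Erbb2 arrays at 5 µM gave 0.13, -0.15, -0.03 and 0.19, and in untransfected cells 0.29, 0.43, 0.40 and 0.51. The untransfected arrays thus lay within the range of the Erbb2 arrays at 10 µM and above those at 5 µM. The fitted values were 0.42 ± 0.11 (limma adjusted p = 0.108), 0.03 ± 0.16 and 0.41 ± 0.16 (adjusted p = 0.285), and the 10 minus 5 µM difference was 0.38 ± 0.19 (adjusted p = 0.998). Tpm2 was at 0.20 ± 0.20, 0.23 ± 0.28 and 0.07 ± 0.28 and Tpm4 at 0.05 ± 0.25, -0.38 ± 0.35 and -0.10 ± 0.35, in the order Erbb2 cells at 10 µM, Erbb2 cells at 5 µM and untransfected cells.

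The unconventional myosins, which carry membranes and cargo along actin, held some of the widest values. Myo1e, a class I myosin, was above 0 on all 8 Erbb2 arrays at 10 µM, from 0.03 to 1.08 with a median of 0.24, and its fitted value was 0.45 ± 0.14 (limma adjusted p = 0.196). It was at 0.03 ± 0.19 at 5 µM and -0.14 ± 0.19 in untransfected cells. Myo7b, a myosin of brush border microvilli, was below 0 on all 6 measured Erbb2 arrays at 10 µM and on all 4 at 5 µM, with fitted values of -0.80 ± 0.23 (adjusted p = 0.176) and -0.86 ± 0.28 (adjusted p = 0.473). In untransfected cells it was at -0.12 ± 0.28, with arrays between -0.40 and 0.01. Myo5b, a motor of recycling endosomes, was above 0 on all 6 measured Erbb2 arrays at 10 µM, from 0.17 to 1.99. Their plain mean was 1.16 and the fitted value 1.41 ± 0.60 (limma adjusted p = 0.424). Its 3 arrays at 5 µM gave -0.38, -0.46 and 5.73. The value of 5.73 also enters the 10 µM fit through the shared dye term, and the fitted value of 1.88 ± 0.84 at 5 µM rested on that 1 array. Myo18a likewise had 1 array at -6.65 in Erbb2 cells at 5 µM, and Myo10 1 array at -5.33 in Erbb2 cells at 10 µM. Among conventional heavy chains, of which 8 of 9 had a fitted value and 0 passed by limma, the non-muscle Myh9 was at 0.03 ± 0.27 at 10 µM and 0.19 ± 0.39 at 5 µM in Erbb2 cells, and at -0.44 ± 0.39 in untransfected cells. The medians of the heavy chains were -0.04, -0.18 and 0.15.

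The member genes that nucleate or bind actin gave 0 calls by limma. Of 5 measured Arp2/3 subunits and actin-related proteins 4 were below 0 in Erbb2 cells at 10 µM and 3 at 5 µM, against all 5 in untransfected cells, where the median was -0.38. Arpc5l, an Arp2/3 subunit, had log2 ratios from -0.92 to 0.64 on the 8 Erbb2 arrays at 10 µM. The Erbb2 arrays at 5 µM gave 0.36, 0.33, 0.52 and 0.16 and the untransfected arrays -0.59, -0.75, -0.78 and -0.63, so that the arrays at the higher dose in Erbb2 cells overlapped both other groups. The fitted values were -0.09 ± 0.14 at 10 µM and 0.34 ± 0.20 at 5 µM in Erbb2 cells, and -0.69 ± 0.20 in untransfected cells (limma adjusted p = 0.880, 0.959 and 0.114). Arpc5l is an average of several probes. At 5 µM 1 of its probes ran from 0.37 to 2.45. The others ran from -0.12 to 0.28, from -0.56 to 0.01 and from -0.55 to 0.48. The first of these probes was at -3.99 on Erbb2 array 1 at 10 µM. In untransfected cells every probe of Arpc5l was below 0 on every array. Arpc4 was at 0.37 ± 0.21 in Erbb2 cells at 10 µM, and was below 0 on all 4 Erbb2 arrays at 5 µM and on all 4 untransfected arrays, at -0.47 ± 0.29 and -0.37 ± 0.29. Arpc2 was at -0.08 ± 0.11, -0.26 ± 0.16 and -0.05 ± 0.16 in Erbb2 cells at 10 µM, Erbb2 cells at 5 µM and untransfected cells, and Actr3 at -0.02 ± 0.39, 0.14 ± 0.55 and -1.33 ± 0.64, with 1 untransfected array at -4.23. The monomer-binding profilin Pfn1 was, in the same order, at -0.12 ± 0.10, -0.09 ± 0.14 and -0.32 ± 0.14. The calponins Cnn2 and Cnn3 were above 0 in Erbb2 cells at 10 µM, at 0.54 ± 0.39 and 0.43 ± 0.25. At 5 µM they were at 0.15 ± 0.56 and -0.04 ± 0.36, and in untransfected cells at -0.36 ± 0.56 and -0.32 ± 0.36.

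The symbol rule also took in 2 genes that are not myosins. Mylk, the kinase that phosphorylates the regulatory light chain, was above 0 on all 4 Erbb2 arrays at 5 µM, with a fitted value of 0.44 ± 0.33. Mylip, a ubiquitin ligase, was likewise above 0 on those 4 arrays, at 0.46 ± 0.37, but at 0.05 without the third of them. In Erbb2 cells at 10 µM Mylk was at 0.24 ± 0.23 and Mylip at 0.29 ± 0.26, and in untransfected cells they were at -0.15 ± 0.33 and -0.38 ± 0.37. Each untransfected value had 1 array far below 0, at -1.19 for Mylk and -2.19 for Mylip. The medians of the untransfected arrays were 0.12 and 0.11.

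Many actin and muscle genes carry a CArG box, the motif bound by serum response factor, in their promoters. Both strands of each window were searched for this motif, which was in 10 of the 75 member windows, 13.3%, and in 1.63% of all windows. It was found for Actc1, Actg1, Arpc4, Cnn2, Krt12, Myh4, Myl3, Myl6, Myl7 and Myo1e. Stretches of 30 bases with the box in capitals are shown for 4 of these genes that are described above, 5′ to 3′ on the gene's strand. They lie at chr11:120348566-120348595 (Actg1, minus strand), chr2:114052903-114052932 (Actc1, minus strand), chr10:128493040-128493069 (Myl6, minus strand) and chr9:70207308-70207337 (Myo1e, plus strand) of GRCm38.p6.
Actg1: ggaaagatcgCCATATATGGacatgttctg
Actc1: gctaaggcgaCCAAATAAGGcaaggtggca
Myl6: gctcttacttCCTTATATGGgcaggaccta
Myo1e: gctgaattctCCATTTATGGacagattgcc

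The 10 genes with a CArG box did not share a direction. Above 0 at 10 µM in Erbb2 cells were 6 of 10 with a median of 0.04, at 5 µM 5 of 10 with a median of 0.00, and in untransfected cells 5 of 10 with a median of -0.05. By limma 0 of the 10 passed in the 3 groups. Of 27 listed targets of serum response factor outside the members 18 were measured. In Erbb2 cells 0 of 18 passed by limma, with 3 at 10 µM and 0 at 5 µM at an unadjusted p under 0.05 and medians of -0.11 and -0.07. Egr1, an immediate early transcription factor, passed in untransfected cells at 2.73 ± 0.31 (limma adjusted p = 2.79e-04), where the median of the list was 0.02, with 3 higher and 3 lower at an unadjusted p under 0.05.

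The precision differed between groups and members. The median standard error over the members was 0.23 in Erbb2 cells at 10 µM and 0.31 in the other 2 groups. The member's mean had the same sign with treated RNA in Cy5 and in Cy3 for 48 of 79 genes in Erbb2 cells at 10 µM, 41 in Erbb2 cells at 5 µM and 48 in untransfected cells. The shared dye term passed for 0 of 79 members by limma, with 5 at an unadjusted p under 0.05. Where a gene had several probes they often parted: of 16 such members, the kept probes lay on opposite sides of 0 for 4 at 10 µM and 8 at 5 µM in Erbb2 cells, and for 8 in untransfected cells.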

How the data were processed

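RNA of treated and untreated NIH3T3 cells was measured on 16 arrays of 2 colours, and samples were grouped by title and source name. Per the labels, the arrays are dual-colour hybridisations. The authors deposited 1 log ratio for each probe and array, read here as log2 values because the highest ratio was 7.94. The image analysis, the normalization and the log base are each not given in the sources used here. Intensities were not analysed, so signal over background is unknown. Precision depends on how many arrays a group has and on the spread between them, which differed by gene. Of 325680 cells, 38737 were empty and 1755 held a placeholder, 1 identical high value on each array, and were set to missing.

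Arrays with exchanged dyes were compared to see whether the deposited ratios followed the dye or the treatment. The mean Spearman rho over probes was -0.0031 between arrays of opposite dye labels and 0.0611 between arrays of the same label in Erbb2 cells at 10 µM, -0.0139 and 0.115 at 5 µM, and -0.1293 and 0.1795 in untransfected cells. Ratios that follow the dye would give a negative rho between opposite labels. It was negative in untransfected cells but close to 0 in both Erbb2 groups. There it does not settle whether the values were deposited already as treated over untreated. These correlations would be the same for Cy3 over Cy5, so they cannot choose between Cy5 over Cy3 and Cy3 over Cy5. Values were read as Cy5 over Cy3, a choice that was not tested.

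Probes were kept with values on at least 3 of 4 or 6 of 8 arrays of each group and at least 1 of each dye arrangement, which left 14813 of 20355. Kept probes with exactly 1 symbol were averaged by gene, giving 7832 features. The other kept probes, without a single symbol, each stayed a feature of their own, which gave 12420 features in all. The platform annotation gave the symbols, and 13994 of 14030 probes with 1 symbol were found in the reference, with 0 symbols changed. Probe positions are not given. The fit used lmFit and eBayes of limma 3.58.1 in R 4.3.3 with version 1.17.8 of the data.table package, and tables and figures were made in Python 3.11.15. The procedure was tested on simulated data. Alternatives changed the turning for dye, the dye term, the arrays in a fit, probe averaging, the filter, the scaling, array weights and the arrays left out, and set the replicate number as a block. Same-numbered arrays of 2 groups had deviations that correlated between -0.107 and 0.133, so the numbers were not taken to pair them.

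The members and lists were chosen with earlier results of these data known. Genes are named if they passed in any comparison, were among the 5 highest or 5 lowest of a group with one sign on all its arrays, were on a fixed list of isoforms, or were passing genes of another list, except that the list of actin regulators, which has 1 passing gene, is not reported here. Tuba1b, Tuba1c, Tuba4a, Tubb2a, Tubb4b, Krt5 and Myo18a, and the genes named as not kept or for a promoter motif, were chosen after their values were seen. Of the other lists, 0 of 6 cardiac muscle markers were measured, and of 9 smooth muscle markers 3 were measured with 0 past the threshold by limma in any group. Of 22 other intermediate filament, lamin and desmosome genes 9 were measured, with 0 past it by limma.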

Additional observations from a re-analysis of the deposited data

Results flagged for a closer look

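Single arrays stood apart from the rest of their group for 12 of 127 pairs of a named gene and a group, over 45 genes. By chance the measure picks out about 1 in 20 for genes chosen without regard to their values. Some of the 45 were named for high or low values in these groups, or after their values were seen. The count therefore cannot be set against that rate. The gap of the farthest array to its nearest neighbour was set against the whole range of the group.

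In Erbb2 cells at 10 µM arrays 3, 5 and 6 had the widest ratios of all 16 arrays, with interquartile ranges of 1.21, 1.17 and 1.36. They also had the fewest values. Whether this bears on the values below was not tested. Array 6 of that group gave Acta2 at -2.757, with the other 7 arrays between -0.874 and 0.724. It gave Myo10 at -5.333, with the other 6 between -0.063 and 1.159. Array 5 of that group gave Des at -1.581, with the others between -0.407 and 0.352, and Tnnc1 at -3.894, with the others between -0.249 and 1.264. Array 8 gave Arpc2 at -0.672 and array 3 gave Tpm2 at 2.008, where the others lay between -0.165 and 0.256 for Arpc2 and between -0.547 and 0.460 for Tpm2.

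In Erbb2 cells at 5 µM array 2 gave Actc1 at -0.321 and Arpc2 at -0.123, both close to a tight group of the other 3 arrays, between -0.470 and -0.452 for Actc1 and between -0.324 and -0.293 for Arpc2. Array 3 gave Tubg2 at 0.974, above the others at -0.397 to -0.183.

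In untransfected cells array 2 gave Krt19 at 3.788, with the others between 0.058 and 0.531. Array 3 gave Tnnc1 at 4.573, with the others between 0.023 and 0.468, and Tubg1 at -0.469, below the others at 0.365 to 0.436. The 4 genes that passed in untransfected cells, Krt4, Krt8, Mylpf and Vim, had no array that stood apart by this measure in any group.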

How the results depend on the processing

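There are 4 arrays in 2 of the groups and ratios without intensities, which limits how small a change can be seen, and the direction of the ratios is likely, not settled. In Erbb2 cells at 10 µM the count of 0 members stayed at 0 under all 26 alternatives. In Erbb2 cells at 5 µM the count of 0 became 2 over features with a value on every array, 1 with arrays scaled to one spread and 1 with array weights, which added Vim in each. In untransfected cells the count of 4 became 0 with no array turned for its dye, 0 with each group fitted on its own arrays and 2 with no filter beyond 2 values a group, and it lay between 1 and 4 when 1 array was left out. It was 5 over features with a value on every array, 5 with arrays scaled to one spread, 5 with each probe tested on its own and 6 with array weights. The count was 1 without untransfected array 2, and 2 without untransfected array 1, 3 or 4, Erbb2 array 1 or 2 at 10 µM or Erbb2 array 3 at 5 µM. For Erbb2 minus untransfected cells the count of 0 became 3 over features with a value on every array, 1 with arrays scaled to one spread and 1 with array weights, which added Krt4 in each, 4 with the treated RNA of untransfected cells in the other dye, and 0 to 1 when 1 array was left out (1 without Erbb2 array 2 at 5 µM, Krt8). With no array turned Vim was at 0.0125 in untransfected cells. With the other dye, values in untransfected cells were 0.90 for Krt4, -1.13 for Krt8, 0.78 for Mylpf and 0.55 for Vim, and the differences between lines were -1.16 for Krt4, -1.08 for Mylpf and -0.83 for Vim. Acta2 in Erbb2 cells at 5 µM was -0.56 over features with a value on every array, where 1 of its 2 probes was left, and passed (limma adjusted p = 0.0365). The cause of the other changes was not tested. The replicate block was fitted only for the differences between groups and left 0 members called in both, so it does not bear on the calls in untransfected cells.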

Other observations

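Other cytoskeletal lists were read in the difference between the lines at 10 µM, where the median of all features was -0.03. Of 22 microtubule-associated proteins and motors 0 passed by limma, with 2 higher and 2 lower at an unadjusted p under 0.05 and a median of -0.15. Of 9 other intermediate filament, lamin and desmosome genes 0 passed by limma, with 1 higher and 0 lower and a median of -0.19. The 3 measured calponins and profilin were above 0 in that difference, with a median of 0.75 and 0 higher or lower at an unadjusted p under 0.05. With the untransfected arrays turned the other way, Cnn2 was at 0.19, Cnn3 at 0.11 and Pfn1 at -0.44.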
